A study of Mus musculus with 30 samples.

Results

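Expression of 10 genes, *Lcp1*, *Lgals1*, *Vamp8*, *Phlda2*, *Tec*, *Spn*, *Cst7*, *Arhgef6*, *Gml* and *Gml2*, was followed during erythroid differentiation of murine erythroleukemia (MEL) cells. They are 10 of the 54532 genes in the count table and were picked by symbol because their RNA was known from these same libraries to fall in dimethyl sulfoxide (DMSO). The fall from day 0 is therefore given as a description, with no test, and the tests compare the genotypes. These tests use the same libraries as the choice and are not independent of it, least of all those on the difference of the falls. The libraries came from wildtype (WT) MEL cells of the DS19 line and from Abcb10-null MEL cells, which are a single CRISPR/Cas9 clone (clone 12) without the mitochondrial transporter Abcb10. Both were taken at day 0, without DMSO, and at day 2 and day 5 in 1.5% DMSO. There were 5 libraries for each genotype and day and 30 in all. A single clone cannot separate the loss of Abcb10 from what else sets that clone apart, and p-values measure the spread between numbered biological replicates only.

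MEL cells are proerythroblast-like cells transformed by a leukemia virus, and DMSO releases them into a program of heme and hemoglobin production and loss of nonerythroid gene expression. Leukocyte adhesion rests on heavily glycosylated surface proteins such as CD43, on lectins that bind their sugars, and on actin bundlers and Rac activators under the membrane, while nonreceptor tyrosine kinases such as *Tec* carry signals inward from the receptors. Not every gene chosen fits under that heading. *Spn* encodes CD43, *Lgals1* the sugar-binding galectin-1, *Lcp1* the actin bundler L-plastin, *Arhgef6* the Rac and Cdc42 activator alpha-PIX and *Tec* a tyrosine kinase, but *Phlda2* encodes an imprinted pleckstrin homology protein, *Vamp8* a membrane fusion SNARE, *Cst7* the lysosomal protease inhibitor cystatin F, and *Gml* and *Gml2* are Ly6-type genes. "Shut down" did not hold for all either, since *Vamp8* and *Tec* kept 29.5% and 34.2% of their day 0 level in WT cells at day 5.

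Library totals ranged from 9906783 to 20157768 counts. Abcb10 itself was measured at 119 ± 5.65 CPM (counts per 1000000 counts of the scaled library, mean ± SD, n = 5) in WT cells at day 0 and 74.3 ± 4.82 CPM in the Abcb10-null clone, and at 1223 ± 45.6 and 212 ± 30.2 CPM at day 5, so its RNA was lower in the null clone but present. The erythroid label held: 10 to 12 of 13 erythroid markers averaged over 1 CPM in every group although globin RNA was depleted, and their summed level rose in WT cells from 2012 to 2266 CPM at day 0 to 3227 to 4280 at day 2 and 11012 to 24154 at day 5. In Abcb10-null cells the sums were 2128 to 2306, 2011 to 2893 and 5066 to 6652 CPM, so that the genotypes overlapped at day 0 and did not at days 2 and 5. WT day 5 replicate 5 stood apart from its group, with an erythroid sum of 11012 CPM against 19932 to 24154 in the other 4, and day 5 results are given with and without it where that changes them. Within Abcb10-null day 2, replicates 2 and 5 had the lowest sums, 2011 and 2029 CPM against 2684 to 2893.

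Markers of other blood cells stayed low. The 6 macrophage markers summed to 7.88 to 9.29 CPM at day 0 and 1.52 to 4.27 at day 5 in WT cells and to 9.73 to 15 and 2.49 to 10.7 in Abcb10-null cells, with *Adgre1* at 0 in all 5 WT day 0 libraries. Neutrophil, mast cell, T cell and B cell markers each summed to between 0 and 8.72 CPM in any library. At day 0 the sums of 2 lists did not overlap between genotypes. Mast cell and basophil sums were 0.567 to 1.33 CPM in WT and 3.52 to 6.76 in Abcb10-null libraries, with *Mcpt8* at 0 in both and *Cpa3* and *Fcer1a* over 1 CPM in the latter, and macrophage sums, given above, were also higher in the latter. *S100a8*, *S100a9* and *Ly6g* were at 0 throughout days 0 and 2. Abcb10-null day 5 replicate 4, the shallowest library, had the highest neutrophil (5.09 CPM), T cell (3.74 CPM) and B cell (8.72 CPM) sums of its group. It was also among the top 2 of its group for 8 of the 10 genes. Without it the day 5 comparison between genotypes called 5 of them, and the part of other cells' RNA was not tested. In bulk RNA, fewer cells of a type and less RNA per cell cannot be told apart.

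The 10 genes lie on 7 chromosomes (GRCm38, annotation GENCODE M21). *Gml* (chr15:74813452-74818815, minus strand) and *Gml2* (chr15:74819071-74834871, plus strand) start 256 bases apart and run in opposite directions, and *Lgals1* (chr15:78926725-78930465) is on the same chromosome, while *Spn* (chr7:127132232-127137823) and *Phlda2* (chr7:143501545-143503150) share chromosome 7. The others are *Lcp1* (chr14:75131101-75230842), *Vamp8* (chr6:72385223-72390703), *Tec* (chr5:72755716-72868483), *Cst7* (chr2:150570415-150578944) and *Arhgef6* (chrX:57231485-57338729). Exons of *Gml2* overlap those of *Cyp11b1* on the other strand over 285 bases, and exons of *Lcp1* overlap *Gm15628* and *Gm15629*, but these partners had 16, 18 and 5 counts in all 30 libraries together.

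*Gml* and *Gml2* are near copies, and their coding sequences are shown because they limit how far the counts of the pair can be told apart. Both are 531 bases long with the stop codon and differ at 71 of them (86.6% identical). The first 300 bases from the start codon are printed, capitals mark the 42 of them that differ, and the first 130 are the same in both. Of the 481 stretches of 51 bases, the length of 1 read, 80 (16.6%) occur in both genes, so a single read from there could not be given to either gene. The longest run that the longest transcripts share is 188 bases, so shared stretches are not limited to the coding part, and the values of both genes are uncertain.
Gml: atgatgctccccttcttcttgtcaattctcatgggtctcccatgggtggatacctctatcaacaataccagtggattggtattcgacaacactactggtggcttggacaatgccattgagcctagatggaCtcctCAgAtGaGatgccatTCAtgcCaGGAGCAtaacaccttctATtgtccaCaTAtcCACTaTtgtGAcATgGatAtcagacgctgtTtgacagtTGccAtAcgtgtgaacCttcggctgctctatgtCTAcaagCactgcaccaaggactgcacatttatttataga
Gml2: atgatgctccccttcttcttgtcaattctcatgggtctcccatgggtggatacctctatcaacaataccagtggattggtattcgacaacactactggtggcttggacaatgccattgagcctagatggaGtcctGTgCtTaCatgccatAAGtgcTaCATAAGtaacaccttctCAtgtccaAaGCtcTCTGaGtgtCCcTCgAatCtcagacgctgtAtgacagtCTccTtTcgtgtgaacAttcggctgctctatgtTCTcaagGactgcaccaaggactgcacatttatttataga

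Promoters from RefSeq (GRCm38.p6, from 250 bases before to 50 after the start site) were matched for 7 of the 10 genes, *Cst7*, *Tec*, *Vamp8*, *Spn*, *Phlda2*, *Lcp1* and *Arhgef6*, with 2 start sites each for *Lcp1* and *Arhgef6*. They were searched on both strands for 7 short motifs. These were GAGGAAG as found in PU.1 sites, the letters AGATAA bound by GATA factors and their variant TGATAA, the RUNX motif TGTGGT, the box CCAAT, the box TATAAA, and CACCC as bound by KLF factors, and no motif contains another. The 4 promoters below are shown because 3 of them hold a motif other than CACCC and because *Tec* had the largest genotype difference at day 0. *Tec* holds none of the 7, and neither does *Vamp8*. Matches are in capitals and read as the motif or as its reverse complement. They are *Cst7* (chr2:150570165-150570464, plus strand), *Tec* (chr5:72868399-72868698, minus strand), *Phlda2* (chr7:143502475-143502774, minus strand) and the upstream *Arhgef6* start (chrX:57338680-57338979, minus strand).
Cst7: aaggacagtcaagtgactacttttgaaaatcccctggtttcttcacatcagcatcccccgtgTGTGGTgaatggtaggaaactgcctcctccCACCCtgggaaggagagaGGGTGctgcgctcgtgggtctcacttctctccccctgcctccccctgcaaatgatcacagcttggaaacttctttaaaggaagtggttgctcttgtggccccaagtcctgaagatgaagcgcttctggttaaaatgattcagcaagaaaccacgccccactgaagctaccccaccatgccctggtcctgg
Tec: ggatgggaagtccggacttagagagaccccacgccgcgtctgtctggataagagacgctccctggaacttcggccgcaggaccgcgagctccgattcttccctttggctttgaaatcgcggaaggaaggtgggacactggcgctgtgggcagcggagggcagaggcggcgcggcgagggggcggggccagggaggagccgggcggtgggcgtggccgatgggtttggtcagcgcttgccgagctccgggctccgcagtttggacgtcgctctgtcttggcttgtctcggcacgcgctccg
Phlda2: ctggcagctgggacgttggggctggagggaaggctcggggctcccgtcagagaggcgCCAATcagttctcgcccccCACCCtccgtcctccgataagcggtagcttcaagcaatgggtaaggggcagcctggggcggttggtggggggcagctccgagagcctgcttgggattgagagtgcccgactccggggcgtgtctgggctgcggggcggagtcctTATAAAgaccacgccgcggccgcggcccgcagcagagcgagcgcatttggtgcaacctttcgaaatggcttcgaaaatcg
Arhgef6: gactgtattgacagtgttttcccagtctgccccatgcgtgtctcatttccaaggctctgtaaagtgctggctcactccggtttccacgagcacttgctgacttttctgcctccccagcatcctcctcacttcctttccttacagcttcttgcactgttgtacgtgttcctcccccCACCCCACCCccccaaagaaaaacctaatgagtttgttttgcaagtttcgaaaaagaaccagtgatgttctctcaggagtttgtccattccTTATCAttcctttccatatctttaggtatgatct

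TATAAA began at position -30 of *Phlda2*, which also held CCAAT at -193, TGTGGT began at -188 of *Cst7*, and the reverse complement of TGATAA lay at 17 of *Arhgef6*. Each of these was in 1 of the 9 promoters, against 13.6%, 37.4%, 16.8% and 9.05% of all 32851 promoters. CACCC was in 6 of 9 promoters, of 5 genes, against 57.5% of all promoters. GAGGAAG and AGATAA were in 0 of 9, against 13.6% and 11.2% of all, which says only that these letters are not in these windows.

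All 10 genes were lower at day 2 than at day 0 in both genotypes, and for none did a day 2 library reach the range of day 0. In WT cells the share of the day 0 level left at day 2 ran from 4.06% for *Gml* to 29.5% for *Tec*, with a median of 14.9% over the 10 genes. The value for *Gml* rests on WT day 2 replicate 3, without which it was 2.53%. At day 5 the share ran from 0.896% for *Gml2* to 34.2% for *Tec*, with a median of 6.92%. In Abcb10-null cells the range was 8.76% for *Gml* to 39.4% for *Vamp8* at day 2 and 1.27% for *Gml* to 43.4% for *Vamp8* at day 5, with medians of 16.2% and 8.49%. Since the fall chose the genes, nothing is read from their count. In WT cells 30.7% of all genes tested were called lower by day 2 and 34.7% by day 5, and in Abcb10-null cells these shares were 20.1% and 33.3%.

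**Figure D1:**
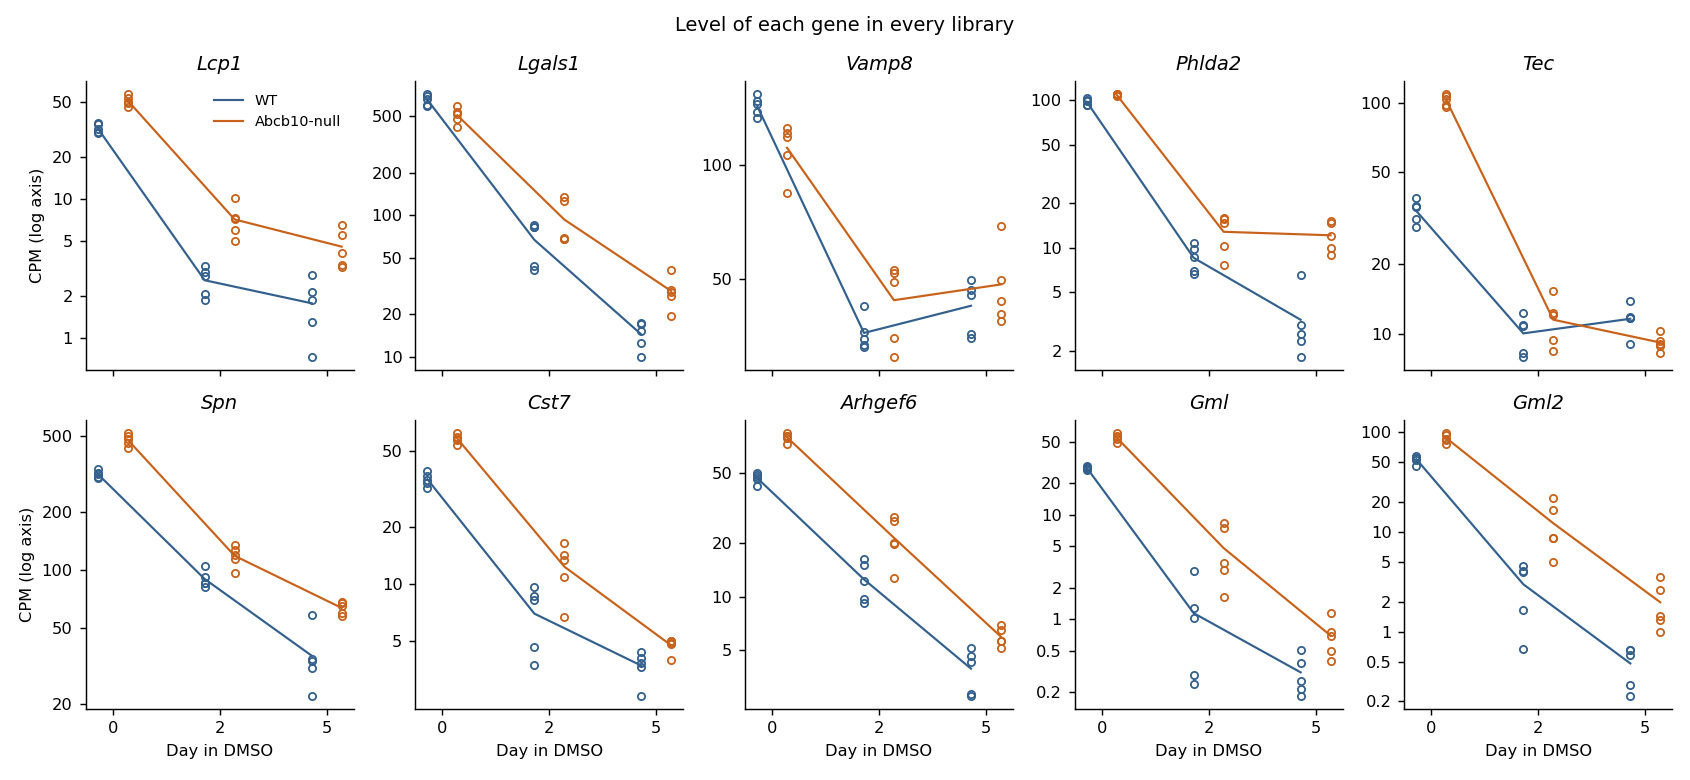
Level of each of the 10 genes in every library, in CPM on a log axis (each panel has its own scale), against the day in DMSO (days evenly spaced); open circles are single libraries, 5 for each genotype and day, and lines join the group means of WT (blue) and Abcb10-null (orange) cells. Every day 2 circle lies below every day 0 circle of its genotype, and the *Tec* lines start apart, at 34 and 102 CPM, and come together by day 2.

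The timing differed from gene to gene. On the log2 scale, 71.3% (median) of the day 5 fall in WT cells and 65.5% in Abcb10-null cells was in place at day 2. *Arhgef6* was the slowest by this share, with 53.2% and 50.4% of its fall by day 2. *Vamp8* was past its day 5 fall already at day 2, at 114% and 112%, and so was *Tec* in WT cells (114%). The day 5 libraries overlapped those of day 2 for 5 genes in WT cells (*Lcp1*, *Vamp8*, *Tec*, *Cst7* and *Gml*) and for 4 in Abcb10-null cells (*Lcp1*, *Vamp8*, *Phlda2* and *Tec*).

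**Figure D2:**
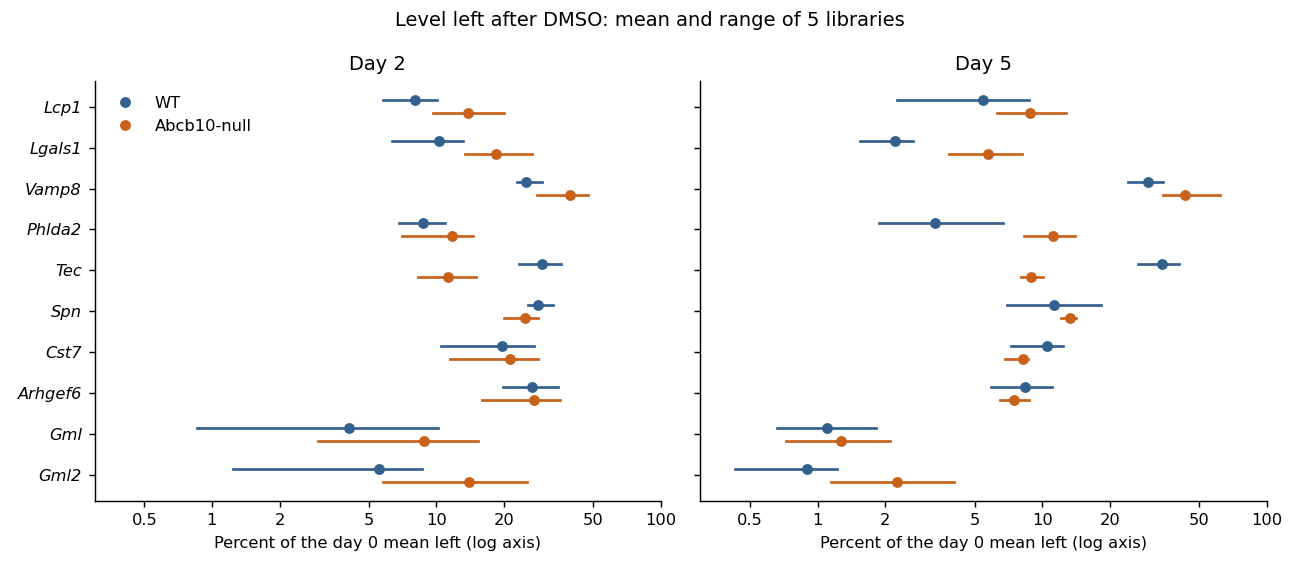
Share of the day 0 mean that was left at day 2 (left) and day 5 (right), in percent on a log axis, for each gene in WT (blue) and Abcb10-null (orange) cells; points are means of 5 libraries and lines run from the lowest to the highest library. *Gml* and *Gml2* kept the smallest shares at day 5 in both genotypes, and *Tec* is the gene for which the Abcb10-null range lies below the WT range at both days.

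The genotypes differed before DMSO was added. At day 0, 7 genes were higher in Abcb10-null than in WT cells (*Tec*, *Gml*, *Arhgef6*, *Cst7*, *Gml2*, *Lcp1* and *Spn*, from 3.02-fold to 1.51-fold), *Lgals1* and *Vamp8* were lower, and *Phlda2* did not pass the test (log2 fold change 0.15 ± 0.058, adjusted p = 0.0535), though all 5 Abcb10-null libraries lay above all 5 of WT. It passed with DESeq2 (adjusted p = 0.045). Across all genes tested at day 0, 19.7% were called higher and 16.2% lower (edgeR quasi-likelihood test, Benjamini-Hochberg adjusted p under 0.05). At day 2, 5 genes were higher in Abcb10-null cells (*Lcp1*, *Spn*, *Arhgef6*, *Gml* and *Gml2*) and 0 were lower, against 14.9% and 16.9% of all genes. At day 5, 5 of the 9 genes that could be tested were higher (*Lcp1*, *Lgals1*, *Phlda2*, *Spn* and *Gml2*) and 0 were lower, against 19.8% and 17.8%. Beside these differences, erythroid marker sums were lower in Abcb10-null cells in every library at days 2 and 5, as given above, and mast cell and macrophage marker sums were higher in every Abcb10-null library at day 0. The part of either in these differences was not tested.

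WT libraries all fell short of the lowest Abcb10-null library for 8 of the 10 genes at day 0, for 2 at day 2 (*Lcp1* and *Gml2*) and for 4 at day 5 (*Lcp1*, *Lgals1*, *Phlda2* and *Gml2*), against 13.7%, 8.01% and 13.5% of all genes. *Vamp8* at day 0 was the reverse, as were 9.15% of all genes. The median log2 difference over the genes was 0.68, 0.64 and 0.82 at days 0, 2 and 5, where that of all genes was between -0.016 and -0.0019. The day 2 count was the least stable: it was 3 without WT day 2 replicate 1 and 2 without WT day 2 replicate 2, and *Spn*, *Arhgef6* and *Gml* were the genes whose calls were lost. The day 0 libraries also enter the fall that chose the genes, so a high day 0 level was favored by the choice in either genotype.

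**Figure D3:**
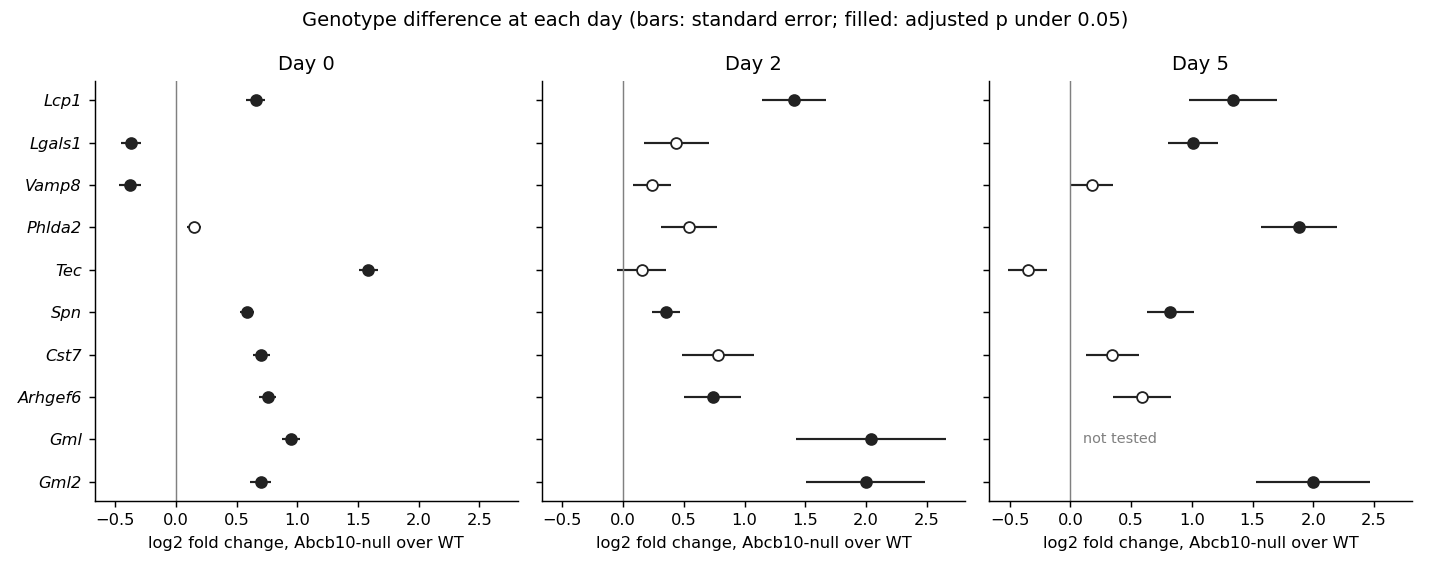
Log2 fold change of Abcb10-null over WT cells for each gene at day 0, day 2 and day 5, with its standard error as a bar (n = 5 libraries a group); filled circles have an adjusted p under 0.05, open circles do not, and the grey line marks 0. *Lgals1* and *Vamp8* lie left of 0 at day 0, *Tec* moves from 1.58 at day 0 to -0.35 at day 5, and *Gml* had too few counts for the test at day 5.

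Whether the fall itself differed was tested as the interaction of genotype and day. The falls compared are those by which the genes were chosen, so a deep fall in either genotype was favored by the choice. The p-values do not allow for that. From day 0 to day 2, *Lcp1*, *Lgals1*, *Vamp8* and *Gml2* fell less in Abcb10-null than in WT cells and *Tec* fell more, against 12% and 10.8% of all genes with a difference in these directions. From day 0 to day 5 it was *Lgals1*, *Vamp8*, *Phlda2* and *Gml2* that fell less and again *Tec* that fell more, against 16.8% and 14.7%. Between day 2 and day 5 edgeR called 0 of the 10 with all libraries, with 2 (*Phlda2* and *Tec*) at an unadjusted p under 0.05, 2 without WT day 5 replicate 5 (*Phlda2* and *Spn*) and 1 without Abcb10-null day 2 replicate 2 (*Phlda2*). DESeq2 called 1 (*Phlda2*). Of all genes, edgeR called 4.71% with all libraries, and DESeq2 called 503 higher and 764 lower of 12679 tested. The day 0 to day 2 count of 5 was 3 without any of 11 single libraries: WT day 0 replicates 2, 3, 4 and 5, Abcb10-null day 0 replicates 1, 2, 4 and 5, WT day 2 replicates 1 and 2, and Abcb10-null day 2 replicate 5. *Lgals1* and *Gml2* were the calls lost. In all 20 leave-one-out fits *Tec*, *Vamp8* and *Lcp1* kept their calls.

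**Figure D4:**
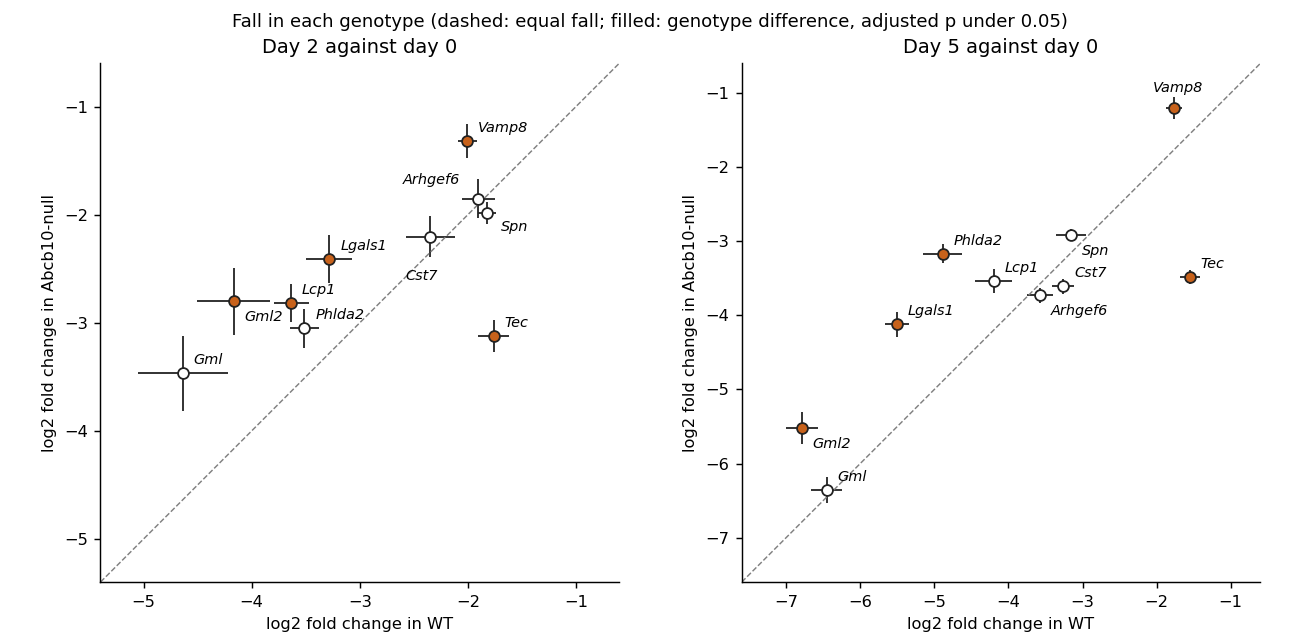
Log2 fold change in Abcb10-null cells against that in WT cells for each gene, day 2 against day 0 (left) and day 5 against day 0 (right), with standard errors as bars; the dashed line is an equal fall in both genotypes and filled points have a genotype difference with an adjusted p under 0.05. Points above the line fell less in Abcb10-null cells, and *Tec* is the filled point below it at both days.

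*Tec*, a nonreceptor tyrosine kinase of the same family as *Btk*, had the largest genotype difference at day 0 and none that passed the test afterwards. The 5 WT libraries held 38.5, 31.5, 35.7, 29 and 35.2 CPM at day 0, and the 5 Abcb10-null libraries 109, 95.4, 97.9, 106 and 104. Every Abcb10-null library was at least at 95.4 CPM and no WT library was over 38.5, a 3.02-fold difference in the means (log2 1.58 ± 0.078, adjusted p = 1.15e-11). At day 2 the libraries held 7.95, 8.21, 10.9, 10.8 and 12.2 CPM in WT and 9.38, 12.2, 12.1, 8.46 and 15.3 in Abcb10-null cells. Day 5 libraries held 11.7, 11.8, 13.8, 11.6 and 9.01 CPM in WT, and in Abcb10-null cells 9.03, 9.34, 8.26, 10.3 and 8.87. The groups overlapped at both days (log2 0.15 ± 0.20, adjusted p = 0.595 at day 2 and -0.35 ± 0.16, adjusted p = 0.0959 at day 5). The log2 change of *Tec* by day 2 was -3.12 ± 0.15 in Abcb10-null cells and -1.76 ± 0.14 in WT cells, and the difference of the falls was -1.39 ± 0.20, adjusted p = 0.000148 to day 2 and -1.92 ± 0.15, adjusted p = 4.79e-09 to day 5. Without WT day 5 replicate 5, the lowest WT library, the day 5 difference passed the test (log2 -0.44, adjusted p = 0.0231).

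*Phlda2*, an imprinted gene known for restraining placental growth, had its largest genotype difference of the 3 days at day 5. WT libraries held 99.2, 103, 93, 100.2 and 92.5 CPM at day 0 and Abcb10-null libraries 109, 109.8, 109, 109 and 107. By day 2 WT libraries held 6.93, 6.62, 8.61, 9.83 and 10.7 CPM and Abcb10-null libraries 14.6, 15.9, 7.65, 10.3 and 15.6, with overlapping groups (log2 0.54 ± 0.23, adjusted p = 0.0879), and the difference passed the test without Abcb10-null day 2 replicate 3 (log2 0.68, adjusted p = 0.0351), as did that of the falls to day 2 (0.54, adjusted p = 0.037). At day 5 they held 2.99, 1.83, 2.6, 2.31 and 6.5 CPM in WT and 15.2, 8.97, 9.9, 14.6 and 12 in Abcb10-null cells. The groups did not overlap, and the means differed 3.74-fold (log2 1.88 ± 0.31, adjusted p = 0.00057). WT cells kept 3.33% of the day 0 level and Abcb10-null cells 11.2%, and the falls to day 5 differed by 1.73 ± 0.28, adjusted p = 5.17e-05. WT day 5 replicate 5 was the highest of its group at 6.50 CPM. Without it the WT mean was 2.43 CPM, the day 5 difference was log2 2.29 and the day 2 to day 5 difference of the falls, 1.29 with all libraries (adjusted p = 0.0646), was 1.76 (adjusted p = 0.00276). Without Abcb10-null day 2 replicate 2 it was 1.41 (adjusted p = 0.0423).

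*Lgals1* and *Spn* belong together at the cell surface, where galectin-1 binds glycans on CD43 and other sialomucins. *Lgals1* was the most abundant of the 10 per length of exon at days 0 and 2 (722 CPM per kilobase in WT cells at day 0). WT libraries held 663, 693, 715, 589.9 and 601 CPM at day 0 and Abcb10-null libraries 514, 476, 592, 534 and 421, a lower mean in Abcb10-null cells (log2 -0.37 ± 0.081, adjusted p = 0.0017) with overlapping groups. At day 2 WT libraries held 44, 41.2, 82.2, 85.4 and 82.2 CPM and Abcb10-null libraries 67.8, 135, 69.3, 67.8 and 127. Each group was split, with WT replicates 1 and 2 low and Abcb10-null replicates 2 and 5 high, and the groups overlapped (log2 0.44 ± 0.27, adjusted p = 0.224). At day 5 WT libraries held 17.1, 10, 17.3, 15.1 and 12.5 CPM and Abcb10-null libraries 19.4, 28.6, 26.8, 29.8 and 41, all 5 of the latter above all of the former (log2 1.01 ± 0.21, adjusted p = 0.00219). The direction of the genotype difference thus turned between day 0 and day 5, and the falls differed by 1.39 ± 0.22, adjusted p = 4.11e-05 to day 5. The difference of the falls to day 2, 0.84 ± 0.30, adjusted p = 0.0481, lost its call in 13 of 20 leave-one-out fits and kept it without Abcb10-null day 0 replicate 3, WT day 2 replicate 3, 4 or 5 or Abcb10-null day 2 replicate 1, 3 or 4, with values from 0.66 to 0.94.

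*Spn* kept more of its day 0 level than *Lgals1*. It ranged from 304 to 338 CPM in WT and 432 to 519 in Abcb10-null libraries at day 0, from 81.2 to 105 and 96.1 to 136 at day 2, and from 22.1 to 58 and 57.8 to 67.7 at day 5. Abcb10-null cells were higher at each day, by log2 0.59 ± 0.058, adjusted p = 2.96e-07 at day 0, 0.35 ± 0.12, adjusted p = 0.0337 at day 2 and 0.82 ± 0.19, adjusted p = 0.00518 at day 5. The day 2 call was lost without any of 7 single libraries (WT replicates 1, 2, 3 and 5, Abcb10-null replicates 1, 3 and 4), with values from 0.30 to 0.42. The day 5 overlap came from WT replicate 5 at 58 CPM, since the other 4 WT libraries did not pass 34.1. The difference of the falls to day 5 did not pass the test with all libraries (0.25 ± 0.21, adjusted p = 0.386, 95% interval -0.16 to 0.66) and passed without that library (0.49, adjusted p = 0.00506), as did that from day 2 to day 5 (0.71, adjusted p = 0.016).

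*Lcp1* and *Arhgef6* act on the actin cortex, L-plastin by bundling filaments and alpha-PIX by loading Rac and Cdc42 with GTP. *Lcp1* held 34.7, 29.8, 32, 30.4 and 35.3 CPM in the WT libraries at day 0 and 46.4, 49.6, 54, 57.1 and 50 in those of Abcb10-null cells. At day 2 it held 1.87, 2.78, 2.07, 2.99 and 3.26 CPM in WT libraries, and in Abcb10-null libraries 6.0, 10.3, 4.98, 7.24 and 7.15. At day 5 WT libraries held 0.729, 2.81, 2.13, 1.3 and 1.87 CPM and those of Abcb10-null cells 3.22, 3.36, 4.07, 6.54 and 5.48. No WT library reached the lowest Abcb10-null library at any of the 3 days. The difference was 1.59-fold at day 0 (log2 0.66 ± 0.075, adjusted p = 1.91e-06), 2.75-fold at day 2 (log2 1.41 ± 0.26, adjusted p = 0.00381) and 2.56-fold at day 5 (log2 1.34 ± 0.37, adjusted p = 0.0119). The fall to day 2 was smaller in Abcb10-null cells by 0.80 ± 0.23, adjusted p = 0.0188, and that to day 5 by 0.69 ± 0.29, adjusted p = 0.0803, which did not pass the test with all libraries. It did without WT day 5 replicate 2 (0.92, adjusted p = 0.0138) or Abcb10-null day 5 replicate 1 (0.78, adjusted p = 0.0478). Counts of *Lcp1* at day 5 were 10 to 37 in WT libraries, so this gene was thinly sampled there.

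*Arhgef6* had the smallest part of its own day 5 log2 fall in place at day 2 in both genotypes (53.2% and 50.4%). It ranged from 42.3 to 49.8 CPM in WT and 73.3 to 83.8 in Abcb10-null libraries at day 0, 9.28 to 16.3 and 12.7 to 28.2 at day 2, and 2.77 to 5.17 and 5.15 to 6.95 at day 5. The Abcb10-null level was higher at day 0 (log2 0.76 ± 0.067, adjusted p = 7.03e-08) and day 2 (log2 0.74 ± 0.23, adjusted p = 0.0289), and at day 5 the difference did not pass the test (log2 0.59 ± 0.24, adjusted p = 0.0686). Leaving out WT day 2 replicate 1, 2 or 4, or replicate 5 of Abcb10-null day 2, ended the day 2 call (log2 from 0.62 to 0.73), and the day 5 test was passed without WT replicate 2 (log2 0.70, adjusted p = 0.0384). The 95% interval of the difference of the falls was -0.44 to 0.49 to day 2 and -0.52 to 0.24 to day 5.

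*Vamp8* and *Cst7* work in endosomes, lysosomes and granules, *Vamp8* as a SNARE of late endosome and granule fusion and *Cst7* as an inhibitor of lysosomal cathepsins. *Vamp8* had the shallowest fall in Abcb10-null cells. WT libraries ranged from 133 to 155 CPM at day 0, 33 to 42.4 at day 2 and 34.8 to 49.5 at day 5. Abcb10-null libraries ranged from 84.8 to 126 CPM, 31.1 to 52.8 and 38.6 to 69.3 on the same days. It was lower in Abcb10-null cells at day 0 (log2 -0.38 ± 0.089, adjusted p = 0.00295), with no overlap, and the genotypes overlapped at day 2 (log2 0.24 ± 0.16, adjusted p = 0.27) and day 5 (log2 0.18 ± 0.17, adjusted p = 0.438). The fall was smaller in Abcb10-null cells by 0.66 ± 0.19, adjusted p = 0.016 to day 2 and 0.57 ± 0.20, adjusted p = 0.0317 to day 5. The latter call was lost in 6 of 20 leave-one-out fits (without WT day 0 replicate 2 or 3, Abcb10-null day 0 replicate 2 or 5, WT day 5 replicate 2 or Abcb10-null day 5 replicate 5), with values from 0.40 to 0.64 over the 20.

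*Cst7* ranged from 32.2 to 39.3 CPM in WT and 53.8 to 62.2 in Abcb10-null libraries at day 0, 3.74 to 9.68 and 6.71 to 16.5 at day 2, and 2.59 to 4.41 and 3.98 to 5.03 at day 5. The genotypes were apart at day 0 (log2 0.70 ± 0.071, adjusted p = 4.18e-07) and overlapped at day 2 (log2 0.78 ± 0.29, adjusted p = 0.0579) and day 5 (log2 0.34 ± 0.22, adjusted p = 0.228). At day 2 the difference passed the test without WT replicate 3 (log2 0.92, adjusted p = 0.0407) or Abcb10-null replicate 3 (log2 0.94, adjusted p = 0.031). It also passed under 3 of the 6 alternatives that keep all libraries, with adjusted p = 0.0311 with DESeq2, 0.00998 with all genes of at least 1 count and 0.00159 with all 30 libraries in 1 fit. The 95% interval of the difference of the falls was -0.47 to 0.70 to day 2 and -0.66 to -0.02 to day 5. The latter did not pass the test after adjustment (adjusted p = 0.119). It passed without WT day 5 replicate 2 (-0.44, adjusted p = 0.0222) and with library totals only (-0.48, adjusted p = 0.0317).

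*Gml* and *Gml2*, which encode GPI-anchored proteins of the Ly6 type, had the deepest falls by day 5. *Gml2* held 45.5, 53.1, 58.4, 55.6 and 55.5 CPM in WT and 86.3, 94.1, 97.7, 82.9 and 75.5 in Abcb10-null libraries at day 0. At day 2 the WT libraries held 0.663, 1.65, 4.6, 3.97 and 4.04 CPM and the Abcb10-null libraries 8.78, 16.5, 5.03, 8.7 and 22.1. At day 5 the former held 0.656, 0.228, 0.649, 0.289 and 0.579 CPM (3 to 9 counts a library) and the latter 2.59, 1.43, 1.3, 3.53 and 1.0 (13 to 41 counts). Abcb10-null libraries lay above all WT libraries at each day, 1.63-fold in the means at day 0 (log2 0.70 ± 0.084, adjusted p = 3.58e-06), 4.09-fold at day 2 (log2 2.0 ± 0.49, adjusted p = 0.00989) and 4.1-fold at day 5 (log2 2.0 ± 0.47, adjusted p = 0.00523). The falls differed by 1.34 ± 0.47, adjusted p = 0.0413 to day 2 and by 1.28 ± 0.37, adjusted p = 0.00994 to day 5, the latter in all 20 leave-one-out fits but not with all 30 libraries in 1 fit (adjusted p = 0.131). The former call was lost in 11 of the 20, those named above for the count, with values from 1.02 to 1.51 over the 20, and also with DESeq2 (adjusted p = 0.07) and with library totals only (adjusted p = 0.0783). The genotype call at day 5 was lost with all genes of at least 1 count (adjusted p = 0.0581), and that at day 0 with all 30 libraries in 1 fit (adjusted p = 0.136).

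*Gml* had lost most of its level by day 2. It held 28.2, 29.3, 28.9, 27.7 and 26.8 CPM in WT and 55.8, 52.8, 60.3, 56.5 and 48.2 in Abcb10-null libraries at day 0 (log2 0.95 ± 0.074, adjusted p = 9.91e-09). At day 2 it held 0.241, 0.295, 2.87, 1.04 and 1.27 CPM in WT, with 4 counts in the lowest library, and in Abcb10-null cells 3.44, 8.42, 1.62, 2.98 and 7.51 (log2 2.04 ± 0.62, adjusted p = 0.024). The groups overlapped there, and the call was lost without WT day 2 replicate 2 (log2 1.8, adjusted p = 0.0536). The falls to day 2 differed by 1.15 ± 0.55, adjusted p = 0.129, short of the threshold, and passed it without WT day 2 replicate 3 (1.74, adjusted p = 0.0189). At day 5 only 2 to 7 counts a library were left in WT and 7 to 12 in Abcb10-null cells, too few for the model, and the mean of 0.698 CPM against 0.310 CPM had an exact two-sided permutation p of 0.0238, where the smallest possible with 5 against 5 is 0.00794. The part that reads shared by the pair have in these values was not tested.

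Per kilobase of exon, the order of the genes in WT cells at day 0 was *Lgals1* (722 CPM per kilobase), *Phlda2* (87.1), *Spn* (67.9), *Vamp8* (62.3), *Gml2* (38.5), *Cst7* (36.1), *Gml* (24.4), *Tec* (9.07), *Arhgef6* (5.48) and *Lcp1* (3.41). The libraries of neighbours in this order overlapped for *Spn* with *Vamp8* and for *Gml2* with *Cst7* and for no other pair. At day 5 the WT order was led by *Vamp8* (18.4) and *Lgals1* (16), which overlapped, and ended with *Gml2* (0.345), *Gml* (0.269) and *Lcp1* (0.186), whose neighbours overlapped too. In Abcb10-null cells *Spn* (102) stood second at day 0 and overlapped *Phlda2* (97).

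The relative spread between replicates grew in DMSO, where counts were lower. In WT libraries *Gml* had 381 to 521 counts at day 0 and 2 to 7 at day 5, and *Spn* 4187 to 5623 and 290 to 901. The part of counting error in the spread was not tested. The median coefficient of variation over the 10 genes was 6.92% in WT and 7.56% in Abcb10-null libraries at day 0, 24.2% and 28.6% at day 2, and 32.5% and 24.3% at day 5. At day 2 the same libraries were high or low for many of the genes. WT replicates 1 and 2 were the lowest of their group for 6 and 4 of the 10, and WT replicate 5 was among the top 2 for all 10. Abcb10-null replicates 2 and 5, the libraries with the lowest erythroid sums of that group, were the top 2 for 7 genes, *Lcp1*, *Vamp8* and *Spn* being the exceptions, and among WT day 2 libraries replicates 1 and 2 had the highest erythroid sums (4280 and 4150 CPM against 3227 to 3874). At day 5 the picture was mixed. WT replicate 5, with the lowest erythroid sum of its group, was among the top 2 for 2 genes and the lowest for 2. Abcb10-null replicates 4 and 5, with the lowest sums of that group, were among the top 2 for 8 and 5 genes. A link between erythroid sum and these genes was not tested.

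Related genes fell more often than they rose, but many rose. Beside the 10 genes, 10 lists of related genes (170 symbols, 121 of them tested in WT cells) were counted, and 58 fell (47.9%) and 30 rose (24.8%) from day 0 to day 5, against 34.7% and 36.5% of all genes. In Abcb10-null cells 64 of 130 fell (49.2%) and 37 rose (28.5%), against 33.3% and 33.9% of all genes. Their median log2 change was -0.36 and -0.44, where that of all genes was 0.023 and 0.014. Between genotypes at day 0, 54 of 129 were higher in Abcb10-null cells and 9 lower (41.9% and 6.98%), against 19.7% and 16.2% of all genes. At day 2 it was 21 and 17 of 124 (16.9% and 13.7%), near the shares of all genes, 14.9% and 16.9%. At day 5 it was 37 and 18 of 123 (30.1% and 14.6%), against 19.8% and 17.8%.

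Among surface receptors, 11 of 18 genes were tested in WT cells, where 6 fell and 2 rose from day 0 to day 5 with a median log2 change of -0.70. In Abcb10-null cells 7 of 13 fell and 3 rose (median -0.78). *Cd53*, a leukocyte tetraspanin, went from 11.2 to 0.132 CPM in WT cells and from 47.5 to 1.74 CPM in Abcb10-null cells. *Selplg*, the P-selectin ligand, fell in WT cells (log2 -2.72, adjusted p = 1.28e-05), as did the hyaluronan receptor *Cd44* (-2.3, adjusted p = 2.40e-07), while *Cd47*, which marks red cells as self, rose (2.6, adjusted p = 9.22e-09). For the integrins and their activators, 12 of 16 genes were tested in WT cells, where 5 fell and 4 rose from day 0 to day 5 with a median log2 change of -0.35. In Abcb10-null cells 5 of 14 fell and 5 rose (median -0.42). The largest fall was that of *Itgal*, the LFA-1 alpha chain (-2.68, adjusted p = 8.80e-06), and the largest rise that of *Itgav* (1.78, adjusted p = 0.000266). For the galectins, 6 of 8 genes were tested in WT cells, where 3 fell and 2 rose from day 0 to day 5 with a median log2 change of -0.38. In Abcb10-null cells 4 of 6 fell and 2 rose (median -1.77). *Lgals3* fell (-1.44, adjusted p = 0.00147) and stood at 4.7 CPM at day 0 in WT but 22.6 in Abcb10-null cells, *Lgals9* (-0.68) and *Lgals7* (-2.19) fell too, and *Lgals4* rose (2.32, adjusted p = 0.000197).

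For the plastins and cortical actin, 14 of 16 genes were tested in WT cells, where 8 fell and 2 rose from day 0 to day 5 with a median log2 change of -0.69. In Abcb10-null cells 10 of 14 fell and 2 rose (median -0.62). *Coro1a*, coronin 1A of leukocytes, fell furthest in WT cells (-3.1, adjusted p = 1.83e-09). The plastin paralog *Pls3* was at 49.6 and 46.2 CPM in WT cells (-0.10, adjusted p = 0.409) and fell in Abcb10-null cells (-0.31, adjusted p = 0.0383). *Pls1* was under 1 CPM. Of the ERM proteins that bind CD43, *Msn* (-0.89, adjusted p = 0.0108) and *Ezr* (-0.63, adjusted p = 0.000107) fell and *Rdx* rose (0.36, adjusted p = 0.00334), and *Actn1* had the largest rise (0.72, adjusted p = 0.0182). For the PIX, PAK and Rac genes, 18 of 21 genes were tested in WT cells, where 10 fell and 2 rose from day 0 to day 5 with a median log2 change of -0.63. In Abcb10-null cells 12 of 19 fell and 4 rose (median -0.59). *Arhgdib*, a GDP dissociation inhibitor of small GTPases in blood cells, fell in both genotypes (log2 -2.71 in WT and -0.61 in Abcb10-null cells, adjusted p = 7.83e-08 and 0.000202), whereas *Arhgef7*, the paralog beta-PIX, rose in WT cells (0.81, adjusted p = 0.00191). The partners of alpha-PIX were mixed in WT cells, with *Pak1* (-0.79) and *Parvg* (-1.63) lower and *Parvb* higher (1.49). *Pak2*, *Git1* and *Git2* were at 0.38, 0.49 and 0.14 in WT cells without passing the test. In Abcb10-null cells *Pak2* (0.27, adjusted p = 0.0206) and *Git1* (0.42, adjusted p = 0.0311) rose and *Git2* fell (-0.71, adjusted p = 5.17e-05).

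For the Tec kinases and immune receptor signalling, 16 of 22 genes were tested in WT cells, where 11 fell and 0 rose from day 0 to day 5 with a median log2 change of -1.14. In Abcb10-null cells 10 of 18 fell and 3 rose (median -1.0). *Btk*, the kinase closest to *Tec* on the list, fell in WT cells (log2 -1.77, adjusted p = 1.33e-09) from 439 CPM and did not differ by the test between genotypes at day 0 (log2 -0.0032, adjusted p = 0.975), and the adaptor *Dok2* fell furthest (-2.88, adjusted p = 2.89e-08). More SNARE genes rose than fell: 20 of 21 genes were tested in WT cells, where 3 fell and 11 rose from day 0 to day 5 with a median log2 change of 0.29. In Abcb10-null cells 7 of 20 fell and 7 rose (median 0.078). Of the partners of *Vamp8*, *Snap23* (1.17, adjusted p = 4.48e-06) and *Stx7* (1.0, adjusted p = 5.84e-07) rose and *Stx8* (0.11) and *Vti1b* (-0.28) did not pass the test, while *Vamp2* rose (1.73) and *Vamp5* fell (-1.52).

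For the cystatins and lysosomal proteases, 12 of 20 genes were tested in WT cells, where 6 fell and 4 rose from day 0 to day 5 with a median log2 change of -0.21. In Abcb10-null cells 4 of 12 fell and 6 rose (median 0.19). *Ctsc*, the cathepsin that cystatin F restrains, fell in WT cells (-0.84, adjusted p = 8.87e-06) and rose in Abcb10-null cells (0.34, adjusted p = 0.0185), and at day 5 it was higher in Abcb10-null cells (log2 1.2, adjusted p = 6.46e-05). *Ctse* fell (-1.71), *Ctsl* was at -0.061 without passing the test, *Ctsh* was under 1 CPM, and *Ctsf* went from 0.169 to 5.99 CPM in WT cells and from 0.124 to 0.650 in Abcb10-null cells. For the Ly6 family, 5 of 18 genes were tested in WT cells, where 3 fell and 1 rose from day 0 to day 5 with a median log2 change of -1.44. In Abcb10-null cells 2 of 5 fell and 2 rose (median -0.16). *Ly6e* (-1.97, adjusted p = 2.89e-08) and *Ly6k* (-1.85, adjusted p = 8.54e-08) fell, and *Lynx1* rose (3.24, adjusted p = 3.92e-08). For the Phlda genes and the imprinted neighbours of *Phlda2*, 7 of 10 genes were tested in WT cells, where 3 fell and 2 rose from day 0 to day 5 with a median log2 change of 0.19. In Abcb10-null cells 3 of 9 fell and 3 rose (median 0.30). *Cdkn1c* (-0.80, adjusted p = 0.00427) and *Tssc4* (-1.12, adjusted p = 2.70e-06) fell, the antisense RNA *Kcnq1ot1* of the same cluster rose (1.54, adjusted p = 0.00417), *Phlda3* was at 0.19 without passing the test, and *Phlda1* was 0.403 and 1.08 CPM in WT cells at days 0 and 5, too low to test.

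**Figure D5:**
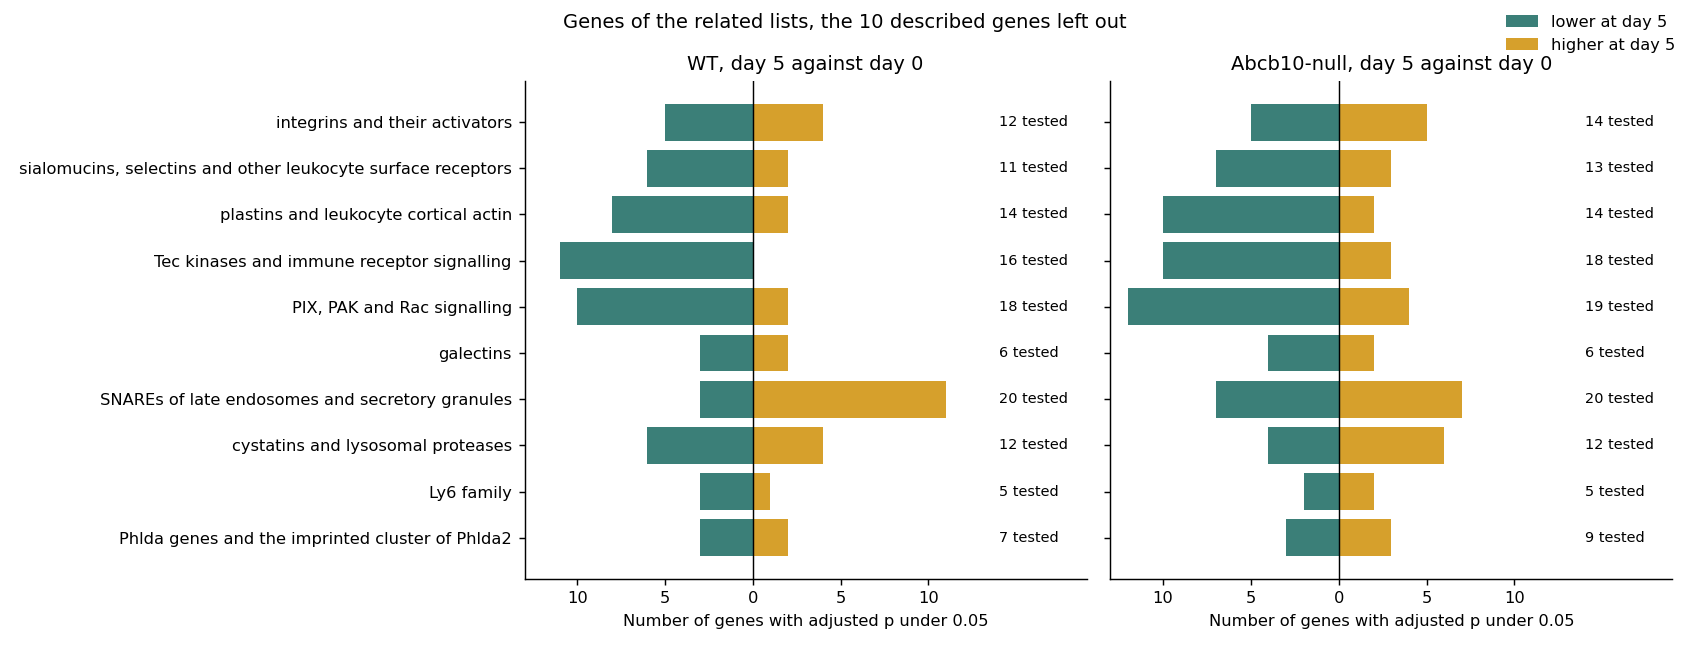
Number of genes in each of 10 related lists, the 10 described genes left out, that were lower (bars to the left) or higher (bars to the right) at day 5 than at day 0 with an adjusted p under 0.05, in WT and Abcb10-null cells; the number tested stands at the right. In WT cells 11 of 16 Tec kinase and immune receptor genes were lower and 0 higher, and 11 of 20 SNARE genes were higher and 3 lower.

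Likeness of profile was the mean absolute difference in log2(CPM + 0.5) over the 6 group means, each profile centred on its own mean. The nearest genes were found among 13592 genes. They were *Cd48* (0.16) and *Gna15* (0.16) for *Spn*, *Acap1* (0.26) and *Siglecf* (0.34) for *Lgals1*, *Fcgr3* (0.21) and *Rnase6* (0.23) for *Lcp1*, *Klhl6* (0.13) and *Gm10384* (0.17) for *Arhgef6* and *Tuba8* (0.16) and *Gm13822* (0.17) for *Tec*. For the others they were *Icam2* (0.28) and *Tyrobp* (0.29) for *Phlda2*, *Myo1f* (0.12) and *Mindy1* (0.13) for *Vamp8*, *Klhl6* (0.098) and *Gmfg* (0.20) for *Cst7*, *Gpr174* (0.15) and *Siglecf* (0.34) for *Gml* and *Gpr174* (0.37) and *Siglecf* (0.42) for *Gml2*. The added 0.5 shrinks the fall of genes of a few CPM, so a near profile need not be an equal fall. From day 0 to day 5 in WT cells *Tec* went from 34.0 to 11.6 CPM, *Tuba8* from 2.63 to 0.530 and *Gm13822* from 1.65 to 0.0516. *Vamp8* went from 144 to 42.4 CPM, *Myo1f* from 2.39 to 0.339 and *Mindy1* from 141 to 45.5. Among the 10 genes themselves, *Spn* and *Cst7* were nearest to each other (0.21), as were *Gml* and *Gml2* (0.27) and *Lcp1* and *Phlda2* (0.31), while *Vamp8* (0.52), *Lgals1* (0.49) and *Tec* (0.48) were farthest from any other.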

How the data were processed

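After depletion of ribosomal and globin RNA, stranded libraries of MEL cell RNA were sequenced in paired reads of 51 bases. The authors aligned these to GRCm38 with STAR 2.6.1b and counted them per Ensembl gene with featureCounts 1.6.3. The deposited values are raw counts per gene, not normalized, and the strand and multimapping settings of the counting are not given in the sources used here. Symbols, positions and exon lengths came from GENCODE M21 for the same build. Of 54532 identifiers, 37 (0.0116% of counts) had no match.

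Counts were tested in R 4.3.3 with edgeR 4.0.16 (TMM, filterByExpr, quasi-likelihood F test, Benjamini-Hochberg adjustment over all genes tested), on the 10 libraries of each genotype or day comparison and the 20 of each interaction. CPM are counts over TMM-scaled library size. Standard errors come from the log2 fold change and its F value, and intervals are a normal approximation from them. Replicates differed by more than counting error (chi-square over degrees of freedom at least 6.23). The steps were tested on simulated data. Alternatives were DESeq2 1.42.0, its size factors, library totals only, no expression filter, all 30 libraries in 1 fit, a replicate block and leaving out each library.

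The 10 genes, 10 related lists and 6 marker lists were chosen with earlier results of these data known. Named list genes were direct partners or paralogs of the 10 genes and those with the largest called fall and rise in WT cells among genes of at least 1 CPM. Of 221 list symbols, 1 had no match. Promoter sequences are from RefSeq, and the coding sequences were read from GENCODE transcripts.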

Additional observations from a re-analysis of the deposited data

Results flagged for a closer look

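2 values among 60 groups of 5 libraries (10 genes in 6 groups) lay far from the other 4 by Dixon's test, which by chance alone marks about 1 group in 20. *Phlda2* in WT day 5 replicate 5 was 6.50 CPM against 1.83 to 2.99 CPM, and *Cst7* in Abcb10-null day 5 replicate 2 was 3.98 CPM against 4.86 to 5.03 CPM. WT day 5 replicate 5 is also the library with the lowest erythroid marker sum of its group.

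The fall, by which the genes were chosen, differed between genotypes by the interaction test for 6 genes, taking the changes to day 2 and to day 5 together. Of all genes tested, 12% had a positive and 10.8% a negative difference called to day 2, and 16.8% and 14.7% to day 5. From day 0 to day 2 the differences (log2, Abcb10-null minus WT) were 0.80 for *Lcp1*, 0.84 for *Lgals1*, 0.66 for *Vamp8*, -1.39 for *Tec* and 1.34 for *Gml2*. From day 0 to day 5 they were 1.39 for *Lgals1*, 0.57 for *Vamp8*, 1.73 for *Phlda2*, -1.92 for *Tec* and 1.28 for *Gml2*. To day 2 the calls of *Lgals1* and *Gml2* held in 7 and 9 of 20 leave-one-out fits, and to day 5 that of *Vamp8* held in 14 of 20. *Tec* had the only negative values, and its Abcb10-null libraries started at 95.4 to 109 CPM against 29 to 38.5 CPM.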

How the results depend on the processing

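The number of the 10 genes called at day 2 between genotypes was 5 and became 3 with library totals only, 6 with DESeq2 and with all genes of at least 1 count, and 7 with all 30 libraries in 1 fit (2 to 6 when 1 library was left out). The day 0 to day 2 interaction went from 5 to 3 with library totals only (3 to 6), that to day 5 from 5 to 3 with all 30 libraries in 1 fit (4 to 6), and that from day 2 to day 5 from 0 to 1 with DESeq2, with all genes of at least 1 count, with all 30 libraries and with the replicate block (0 to 2). Library totals only moved the median of all genes by over 0.1, to 0.22 and 0.13 for days 2 and 5 against day 0 in WT cells. The median also went to -0.14 for day 5 against day 2 in WT cells and to -0.16 and -0.14 for the interactions to days 2 and 5. The same setting turned the sign of values near 0 to day 2 for *Cst7* (-0.043) and *Arhgef6* (-0.14) and to day 5 for *Gml* (-0.017). When 1 library was left out, uncalled values took either sign for *Arhgef6* (-0.098 to 0.13) and *Cst7* (-0.072 to 0.24) to day 2, for *Gml* to day 5 (-0.066 to 0.35), and from day 2 to day 5 for *Lcp1* (-0.28 to 0.15), *Vamp8* (-0.24 to 0.0062) and *Gml2* (-0.31 to 0.31), as did the day 5 against day 2 values in Abcb10-null cells of *Vamp8* (-0.036 to 0.21) and *Phlda2* (-0.22 to 0.0092). The cause was not tested. Of the values under alternatives other than leaving out a library, 673 kept their direction and side of the threshold, 3 changed sign, and 16 each lost and gained a call. The 673 include the falls from day 0 by which the genes were chosen, which kept their calls under every such setting. They therefore do not measure how stable the tests between genotypes are. By setting, with adjusted p in parentheses, the changed calls, except the fall of 1 gene given without p, were as follows. With DESeq2 calls were lost for *Gml2* (0.07) in the interaction from day 0 to day 2. With the same setting calls were gained for *Phlda2* (0.045) at day 0, *Cst7* (0.0311) at day 2 and *Phlda2* (0.0242) in the interaction from day 2 to day 5. With library totals only calls were lost for *Spn* (0.0706) and *Arhgef6* (0.06) at day 2, *Lcp1* (0.0724), *Lgals1* (0.115) and *Gml2* (0.0783) in the interaction from day 0 to day 2 and *Vamp8* (0.0851) in the interaction from day 0 to day 5. With the same setting calls were gained for *Phlda2* (0.0121) at day 0, *Spn* (0.0238) in the interaction from day 0 to day 2 and *Cst7* (0.0317) in the interaction from day 0 to day 5. With all genes of at least 1 count calls were lost for *Spn* (0.0975) at day 2 and *Gml2* (0.0581) at day 5. With the same setting calls were gained for *Lgals1* (0.0351) and *Cst7* (0.00998) at day 2, *Gml* (0.000328) in the interaction from day 0 to day 2 and *Phlda2* (0.014) in the interaction from day 2 to day 5. With all 30 libraries in 1 fit calls were lost for *Lgals1* (0.297), *Vamp8* (0.112) and *Gml2* (0.136) at day 0, *Lcp1* (0.0628) in the interaction from day 0 to day 2 and *Vamp8* (0.0538) and *Gml2* (0.131) in the interaction from day 0 to day 5. With the same setting calls were gained for *Phlda2* (0.0278) and *Cst7* (0.00159) at day 2, *Arhgef6* (0.0157) at day 5, *Phlda2* (0.00875) in the interaction from day 2 to day 5 and *Lcp1* for day 5 against day 2 in Abcb10-null cells. With the replicate block calls were lost for *Lgals1* (0.0614) in the interaction from day 0 to day 2. With the same setting calls were gained for *Phlda2* (0.038) in the interaction from day 2 to day 5. With library totals only, the share of higher among all called genes went from 54.9% to 65.0% between genotypes at day 0, from 52.7% to 29.4% and 53.4% to 38.4% in the interactions to days 2 and 5, from 37.6% to 48.5% in that from day 2 to day 5, and from 50.7% to 66.6% for day 2 in WT cells. Replicate numbers did not pair the libraries (correlations from -0.34 to 0.50 over 75 pairs, 10 over 0.1, and 5 of 30 libraries closest to their own number), and beside the count given, the block ended the *Lgals1* call to day 2 (adjusted p = 0.0614). Calls of *Gml*, *Gml2* and *Lcp1* at day 5 are limited by depth.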
